A study of Mus musculus and Acomys cahirinus with 16 samples.

Results

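The Skint genes (selection and upkeep of intraepithelial T cells) encode cell surface proteins of keratinocytes that resemble butyrophilins. The 10 genes described here, Skint1, Skint2, Skint3, Skint4, Skint5, Skint6, Skint7, Skint9, Skint10 and Skint11, were taken by symbol from the deposited count tables. They were chosen by their lower levels in DMBA/TPA-treated mouse skin, so their values in that comparison are a description and carry no test. All 10 are in the mouse table of 56980 genes, and 5 of the 10 are in the spiny mouse table of 19818 gene names. Skin was compared in 4 groups of 4 samples each, untreated and DMBA/TPA-treated, from mice (Mus musculus) and from African spiny mice (Acomys cahirinus). DMBA damages DNA and starts skin tumours in the classical model, and repeated TPA, which drives epidermal growth and inflammation, makes them grow out. The labels give no strain, age, sex, dose, time or tumour status, and do not say whether each sample came from its own animal, so p-values measure only the spread between these samples. The series text on design speaks of irradiated fibroblasts, which no sample label mentions, and the labels were followed.

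Skint1 is the founding member of the family. It is made by thymic epithelium and by keratinocytes, and it is needed for the development of dendritic epidermal T cells, the γδ T cells of mouse epidermis, whose receptor is built from the Trgv5 and Trdv4 gene segments. These cells touch neighbouring keratinocytes, sense stressed or damaged ones and take part in wound repair and in the surveillance of skin tumours. Skint3 and Skint9 have been linked to the response of these cells to wounds, and the roles of most other members are less well known. The genes arose by duplication, and their transcripts are similar in sequence.

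Polyadenylated RNA was sequenced and the values used are fragment counts per gene, scaled with TMM factors to CPM, counts relative to a common library total. The mouse libraries held between 19608787 and 30198281 counts, and the spiny mouse libraries between 21143918 and 30561256. Of the untreated mouse samples, replicate 2 stood apart, and it is given on its own below. Its 14 markers of growing (anagen) hair follicles summed to 3061 CPM against 20.8 to 52.1 CPM in the other untreated mouse samples and 25760 to 27650 CPM in the treated ones. Its 16 markers of basal and suprabasal keratinocytes summed to 12070 CPM against 19710 to 26360 CPM in the other untreated samples. In bulk skin, fewer cells of a type and less RNA per cell cannot be told apart.

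The mouse genes lie side by side on chromosome 4 of GRCm39, between 111776589 and 114102225, a stretch of 2325.6 kb that also holds Skint8, a family member outside the 10. Skint7, Skint1, Skint4, Skint3, Skint2 and Skint11 lie on the plus strand and Skint9, Skint10, Skint6 and Skint5 on the minus strand. Skint7 spans 111830120 to 111845420, Skint1 111863466 to 111886735 and Skint9 112243166 to 112291182. Skint10 spans 112568344 to 112632063, Skint6 112661813 to 113144170 and Skint5 113335088 to 113856700. No exon of the 10 overlapped an exon of another annotated gene, except that 1.65% of the exon bases of Skint6 overlapped the long noncoding RNA Gm12823 on the opposite strand. Fragments that mapped to several places were not counted, which can lower the counts of members with near-identical stretches.

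All 10 members were lower in treated mouse skin. The median log2 fold change, treated over untreated, was -3.04 over the 10, beside -0.15 over all 19740 genes tested. Of all tested genes, 35.3% were called lower and 25.9% higher, a call being an adjusted p under 0.05. For 8 of the 10 every treated sample lay below every untreated one, a pattern seen in 32.0% of all tested genes. The members fell into a wide range, from 84.1-fold to 2.04-fold, as the following values show.

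Skint7 had the lowest treated level of the 10. It measured 27.8, 35.9, 25.2 and 26.8 CPM in untreated samples 1 to 4 and 0.578, 0.396, 0.0364 and 0.408 CPM in treated samples 1 to 4. The treated values came from 11, 9, 1 and 11 counts, so its fold change rests on few fragments. The log2 fold change was -6.39 (SE 0.413). Skint7 was chosen on this comparison and passed the low-count filter by its untreated levels, so a large fall was favoured in advance. The summed counts, 2777 untreated and 32 treated, gave a ratio of 0.0116 with a 95% exact interval of 0.0079 to 0.0164 that covers counting error only.

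Skint5 was among the most abundant members in untreated skin, with 163.6, 94.9, 204.3 and 162.6 CPM, and measured 7.40, 2.59, 0.691 and 2.67 CPM in treated skin. Its log2 fold change was -5.58 (SE 0.613). Among the treated samples of Skint5, sample 1 was highest and sample 3 lowest. Sample 1 was the highest treated sample for 9 of the 10 members and sample 3 the lowest for 7 of the 10.

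Skint10, Skint9 and Skint6 formed a middle group. Skint10 measured 145.5, 32.5, 156.3 and 120.9 CPM untreated and 10.9, 8.53, 4.98 and 6.72 CPM treated, a log2 fold change of -3.88 (SE 0.478). Skint9 measured 143.7, 34.7, 160.4 and 139.5 CPM untreated and 14.4, 7.69, 3.46 and 10.1 CPM treated, a log2 fold change of -3.75 (SE 0.549). In both genes untreated sample 2 lay between the other untreated samples and the treated ones, without reaching the treated range. Skint6 measured 103.8, 70.9, 118.1 and 88.8 CPM untreated and 11.6, 7.91, 5.38 and 8.06 CPM treated, a log2 fold change of -3.54 (SE 0.250).

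Skint11, Skint4 and Skint1 were lowered less. Skint11 measured 33.9, 14.5, 35.0 and 36.1 CPM untreated and 6.83, 5.67, 4.33 and 3.86 CPM treated, a log2 fold change of -2.54 (SE 0.309). Skint4 measured 76.6, 34.9, 80.3 and 68.3 CPM untreated and 19.2, 14.8, 12.3 and 16 CPM treated, a log2 fold change of -2.06 (SE 0.257). The groups did not overlap in either gene. Skint1, the member with a known part in T cell selection, had the tightest groups, at 75.2, 62.8, 75.6 and 74.5 CPM untreated and 26.4, 28.8, 22.0 and 21.7 CPM treated. Its log2 fold change of -1.54 (SE 0.122) was a 2.91-fold lower level.

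Skint2 and Skint3 were the least lowered and the only members whose groups overlapped. Skint2 measured 16.8, 6.27, 21.0 and 21.0 CPM untreated and 8.98, 7.08, 4.80 and 6.61 CPM treated, a log2 fold change of -1.25 (SE 0.355). Skint3 measured 166.4, 63.3, 176.4 and 159.7 CPM untreated and 85.9, 76.2, 61.7 and 53.9 CPM treated, a log2 fold change of -1.03 (SE 0.298). In both, untreated sample 2 lay inside the range of the treated samples, and the other 3 untreated samples lay above all 4 treated ones. Skint8, the remaining mouse Skint gene, measured 10.4, 16.6, 10.7 and 8.52 CPM untreated and 1.63, 1.98, 1.35 and 1.93 CPM treated, a log2 fold change of -2.74 (SE 0.245) that lies within the range of the 10.

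**Figure D1:**
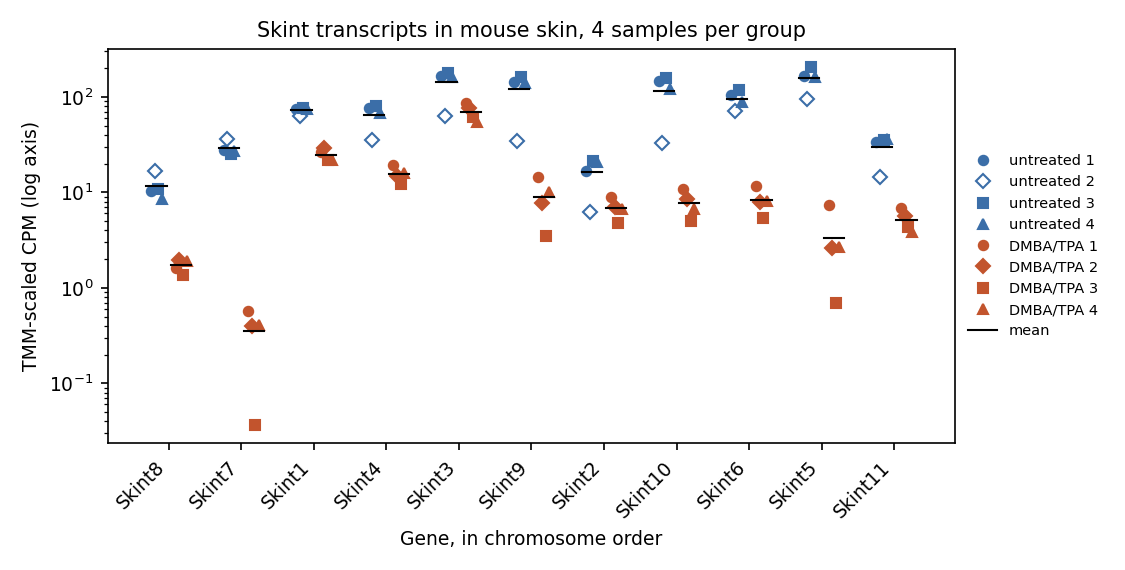
Level of each mouse Skint gene (TMM-scaled CPM, log axis) in every sample, in chromosome order, with untreated samples in blue, DMBA/TPA-treated samples in orange and black lines at group means of 4. Skint7 runs from 25.2 to 35.9 CPM untreated down to 0.578 CPM or less treated, and the open diamonds of untreated sample 2 fall into the treated range in Skint2 and Skint3.

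With the unequal falls, the make-up of the family changed. On the scale of CPM per kilobase of transcript, which allows genes of different length to be compared, Skint9 was the highest member in all 4 untreated samples, at 87.1 ± 41.8 (SD, n = 4). It made up 18.0% of the summed level per kilobase in untreated sample 2 and 31.7% to 32.2% in the other untreated samples. In all 4 treated samples Skint3 was highest, at 18.1 ± 3.73 (SD, n = 4), with 33.1% to 43.7% of the sum. In untreated skin the mean levels per kilobase of Skint3, Skint5 and Skint10 were 36.8 ± 13.7, 34.1 ± 9.88 and 30.5 ± 15, and those of Skint6, Skint1 and Skint11 were 25.0 ± 5.30, 23.9 ± 2.04 and 21.4 ± 7.40 (SD, n = 4 each). From Skint3 to Skint11, neighbours in this order differed by less than the larger of their SDs. Skint4 followed at 14.9 ± 4.74, and Skint7 and Skint2 were lowest at 7.25 ± 1.19 and 6.83 ± 2.92.

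In treated skin Skint1 came after Skint3, at 8.21 ± 1.15 per kilobase, with Skint9 at 6.51 ± 3.35. Skint11, Skint4 and Skint2 stood at 3.71 ± 0.964, 3.57 ± 0.658 and 2.88 ± 0.720, and Skint6 and Skint10 at 2.15 ± 0.669 and 2.08 ± 0.674. Skint5 and Skint7 were lowest in every treated sample, at 0.728 ± 0.623 and 0.0889 ± 0.0571 (SD, n = 4 each). Skint5 thus moved from among the highest members to the next to lowest.

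The summed level of the 10 was 953.3, 450.6, 1053 and 898.3 CPM in untreated samples 1 to 4 and 192.1, 159.7, 119.7 and 130.1 CPM in treated samples 1 to 4. The keratinocyte markers, which include Krt5 of the basal layer, did not fall with it. They summed to 12070 to 26360 CPM untreated and 24780 to 35100 CPM treated. Of the 16 tested, 6 were called higher and 3 lower, where 25.9% of all tested genes were called higher and 35.3% lower. Per 1000 CPM of these markers, the summed Skint level was 39.1, 37.3, 53.4 and 34.1 CPM in untreated samples 1 to 4 and 5.47, 5.16, 4.10 and 5.25 CPM in treated samples 1 to 4. On this scale untreated sample 2 lay among the other untreated samples and the groups did not overlap. The 10 were chosen by their lower treated levels, so this separation was favoured in advance and carries no test. The sum hides single members. In untreated sample 2 the keratinocyte markers were 1.945-fold lower than in the other untreated samples, Skint10 was 4.33-fold lower and Skint7 was higher.

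Other markers moved with the treatment as well. Of 14 anagen hair follicle markers 11 were called higher in treated skin and none lower, where 25.9% of all tested genes were called higher and 35.3% lower. Outside untreated sample 2 the 14 summed to only 20.8 to 52.1 CPM in untreated skin. Some may thus have passed the low-count filter through the treated group, which favours a higher call. All 10 markers of stressed epidermis, such as Krt16, a keratin of wounded and overgrowing epidermis, were called higher, and their sum went from 821 to 1827 CPM untreated to 15820 to 21870 CPM treated. All 10 skeletal muscle markers were called lower, from 12940 to 19430 CPM down to 3107 to 4177 CPM in sum. None of the markers of these 3 lists was at 0 in all mouse samples. The part of these changes in the Skint values was not tested.

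Untreated sample 2 split the family along another line than the treatment did. The mean of the other 3 untreated samples exceeded it 4.33-fold for Skint10, 4.27-fold for Skint9, 3.13-fold for Skint2 and 2.65-fold for Skint3. The same ratio was 2.42 for Skint11, 2.15 for Skint4, 1.86 for Skint5, 1.46 for Skint6 and 1.20 for Skint1. For Skint7 it was 0.741 and for Skint8 0.596, which means that untreated sample 2 held more of both than any other untreated sample. Skint7, the gene most lowered by the treatment, was therefore the only one of the 10 members that was highest in this sample, while 9 of the 10 were lowest there.

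**Figure D2:**
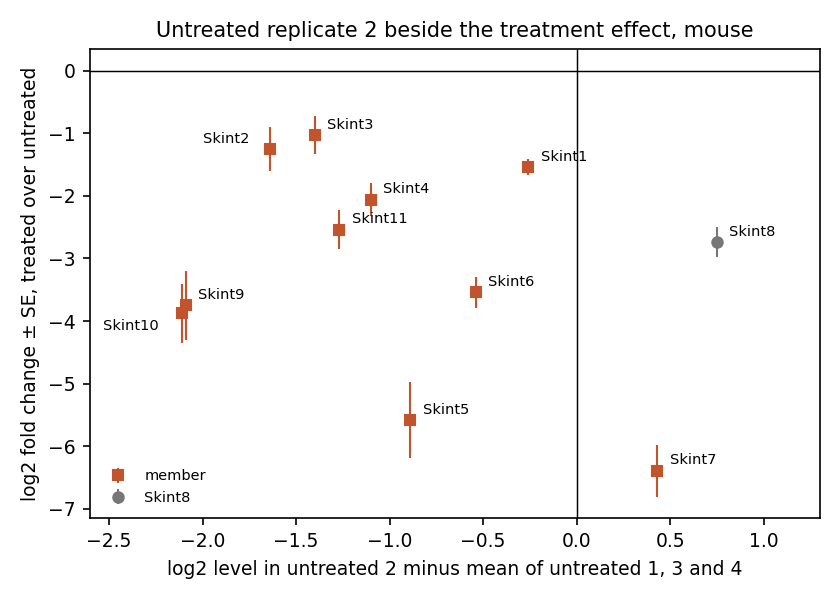
Log2 level in untreated mouse sample 2 minus the mean log2 level of untreated samples 1, 3 and 4 (horizontal axis) against the log2 fold change of DMBA/TPA with its standard error as bars (vertical axis), 1 point per Skint gene. Skint9 and Skint10 lie at the left and Skint7 at the lower right, above its level in the other untreated samples and lowest after treatment.

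Without untreated sample 2 the log2 fold changes of Skint2 and Skint3 were -1.43 and -1.18, those of Skint9 and Skint10 -3.98 and -4.11, and that of Skint7 -6.20. The members' deviations from their group means, over the 8 mouse samples, ran together in the same way. Pearson r was 0.986 for Skint3 and Skint11, 0.980 for Skint4 and Skint10 and 0.95 for Skint5 and Skint6. For Skint7 it was 0.804 with Skint5, 0.632 with Skint6 and -0.011 with Skint3. These coefficients describe 8 samples that share 1 outlying library, and they carry no test.

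Stretches before the RefSeq starts are shown for 7 Skint genes, so that their likeness can be set beside the falls given above. Each line holds the 250 bases upstream of the start in RefSeq's promoter table (GRCm38.p6), found by exact match at one place in GRCm39, and the capitals mark the longest run shared by the group. Skint5 (113856701 to 113856950) and Skint6 (113144171 to 113144420), both on the minus strand of chromosome 4, matched at 88.8% of aligned positions and share a run of 26 bases. They were 47.8-fold and 11.6-fold lower in treated skin and 1.86-fold and 1.46-fold lower in untreated sample 2.
Skint5: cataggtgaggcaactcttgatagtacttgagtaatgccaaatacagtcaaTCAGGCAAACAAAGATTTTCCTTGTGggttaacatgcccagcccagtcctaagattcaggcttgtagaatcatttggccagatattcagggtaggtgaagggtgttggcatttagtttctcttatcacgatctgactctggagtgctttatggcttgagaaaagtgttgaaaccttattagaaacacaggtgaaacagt
Skint6: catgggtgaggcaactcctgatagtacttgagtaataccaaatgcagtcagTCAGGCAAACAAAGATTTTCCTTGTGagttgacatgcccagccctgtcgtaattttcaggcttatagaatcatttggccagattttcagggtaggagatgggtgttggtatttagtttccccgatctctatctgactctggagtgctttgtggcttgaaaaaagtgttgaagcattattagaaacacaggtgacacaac
Skint7 (111829874 to 111830123) and Skint8 (111776502 to 111776751), both on the plus strand, matched at 52.2% of aligned positions and share a run of 51 bases. RefSeq's start for Skint8 lies 163 bases inside the gene as counted by the authors, so 163 of the 250 bases shown for Skint8 belong to that gene. Measured from the gene starts of the authors' annotation, the run begins 48 bases before Skint7 and 67 bases before Skint8. They are the 2 Skint genes that were higher in untreated sample 2, and they were 84.1-fold and 6.70-fold lower in treated skin.
Skint7: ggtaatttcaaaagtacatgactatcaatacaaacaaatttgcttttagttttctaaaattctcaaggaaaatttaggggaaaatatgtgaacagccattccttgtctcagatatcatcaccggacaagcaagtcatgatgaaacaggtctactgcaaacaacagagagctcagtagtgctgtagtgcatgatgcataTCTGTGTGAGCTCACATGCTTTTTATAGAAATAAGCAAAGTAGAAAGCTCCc
Skint8: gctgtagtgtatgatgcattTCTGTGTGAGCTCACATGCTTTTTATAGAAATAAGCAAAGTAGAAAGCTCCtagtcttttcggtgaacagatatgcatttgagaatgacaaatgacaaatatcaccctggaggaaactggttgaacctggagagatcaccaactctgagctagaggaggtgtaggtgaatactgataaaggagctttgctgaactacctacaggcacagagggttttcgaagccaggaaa
Skint9 (112291183 to 112291432, minus strand), Skint10 (112632059 to 112632308, minus strand) and Skint11 (114020331 to 114020580, plus strand) share a run of 13 bases and matched pairwise at 55.6% (Skint9 and Skint10), 53.0% (Skint9 and Skint11) and 57.8% (Skint10 and Skint11) of aligned positions. Pairs for which no shared run is shown matched at 43.4% (Skint4 and Skint5) to 56.8% (Skint2 and Skint5). Among them, Skint1 and Skint5 matched at 56.4% and share a run of 20 bases, and Skint8 and Skint11 matched at 52.3%. The likeness of Skint9, Skint10 and Skint11 is thus near that of other pairs. Skint9, Skint10 and Skint11 were 13.5-fold, 14.7-fold and 5.80-fold lower in treated skin, and 4.27-fold, 4.33-fold and 2.42-fold lower in untreated sample 2.
Skint9: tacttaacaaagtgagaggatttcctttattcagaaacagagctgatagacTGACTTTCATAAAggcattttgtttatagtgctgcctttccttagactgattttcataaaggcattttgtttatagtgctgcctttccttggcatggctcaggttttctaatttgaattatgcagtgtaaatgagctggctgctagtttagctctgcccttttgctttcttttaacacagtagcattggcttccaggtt
Skint10: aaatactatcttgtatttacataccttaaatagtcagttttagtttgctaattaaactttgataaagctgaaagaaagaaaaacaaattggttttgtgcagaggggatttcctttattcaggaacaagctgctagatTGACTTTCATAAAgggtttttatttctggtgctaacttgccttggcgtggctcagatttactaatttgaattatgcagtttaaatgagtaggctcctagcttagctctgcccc
Skint11: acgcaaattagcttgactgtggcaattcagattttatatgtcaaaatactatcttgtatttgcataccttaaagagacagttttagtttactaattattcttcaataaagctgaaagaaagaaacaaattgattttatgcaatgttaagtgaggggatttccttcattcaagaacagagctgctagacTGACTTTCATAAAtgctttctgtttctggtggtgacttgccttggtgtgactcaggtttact
Each of the 3 runs was found in no other window of the 32851 in the promoter table. The letters TGACTCA, a sequence bound by the AP-1 factors that TPA activates, occurred on either strand in 1 of 11 Skint windows, that of Skint11, and in 4.46% of all windows. The letters TATAAA occurred on either strand in 6 of 11 Skint windows and in 12.4% of all windows. They began 31 bases upstream of the RefSeq start in Skint7, 40 in Skint1 and 18 in Skint2. In Skint8, Skint9 and Skint11 they began 130 to 218 bases upstream. The matches of Skint7 and Skint8 lie in the run that both share, so they are not independent. The window of Skint2, 1 of the 6 with a match, lies 56546 bases inside the gene as counted by the authors. For Skint4 the window nearest the authors' gene start was searched, without a match, and a second window 9454 bases further in, set aside, held 2 matches. A match of letters describes the sequence and shows no binding.

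Genes next to the Skint stretch were set beside it. Of the 5 nearest tested genes on each side, 4 of 10 were called higher, 1 of 10 lower and 5 of 10 not called, where 25.9% of all tested genes were called higher and 35.3% lower. Slc5a9, a sugar transporter gene that ends 16.5 kb before the first Skint gene, went from 17.5 ± 2.16 to 39.2 ± 4.27 CPM (SD, n = 4 each). The log2 fold change was 1.17 (SE 0.124; adjusted p 7.79e-05, edgeR). Spata6, a spermatogenesis gene 90.2 kb away on the same side, went from 19 ± 2.20 to 11.2 ± 0.913 CPM. Its log2 fold change was -0.76 (SE 0.122; adjusted p 0.000734, edgeR). On the far side Trabd2b, 161.7 kb beyond the last Skint gene, was at 14 ± 5.06 and 18.4 ± 1.81 CPM and was not called (log2 fold change 0.40, edgeR adjusted p 0.142).

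Of 15 other genes that overlap the Skint stretch, 6 passed the filter on low counts and 9 were not tested. The 6 were called lower, where 35.3% of all tested genes were, with log2 fold changes from -4.62 to -2.09. Their summed counts over the 4 samples were 83 to 392 untreated and 4 to 92 treated, so those with few treated counts passed the filter through the untreated group and had to differ, and the count supports nothing about the stretch. They are the long noncoding RNA Gm12823 and 5 processed pseudogenes, and they were singled out after their values were seen. Of the 6, 5 lie within the bounds of a Skint gene. Gm12816 and Gm12818 are inside Skint6 on its own strand, Gm12823 inside Skint6, Gm12820 inside Skint4 and Gm15741 inside Skint11 on the opposite strand. Their levels were low, from 0.863 ± 0.157 CPM for Gm12823 to 4.07 ± 1.33 CPM for Gm12818 in untreated skin (SD, n = 4). The counting command names no strand option, so fragments from opposite strands cannot be told apart.

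**Figure D3:**
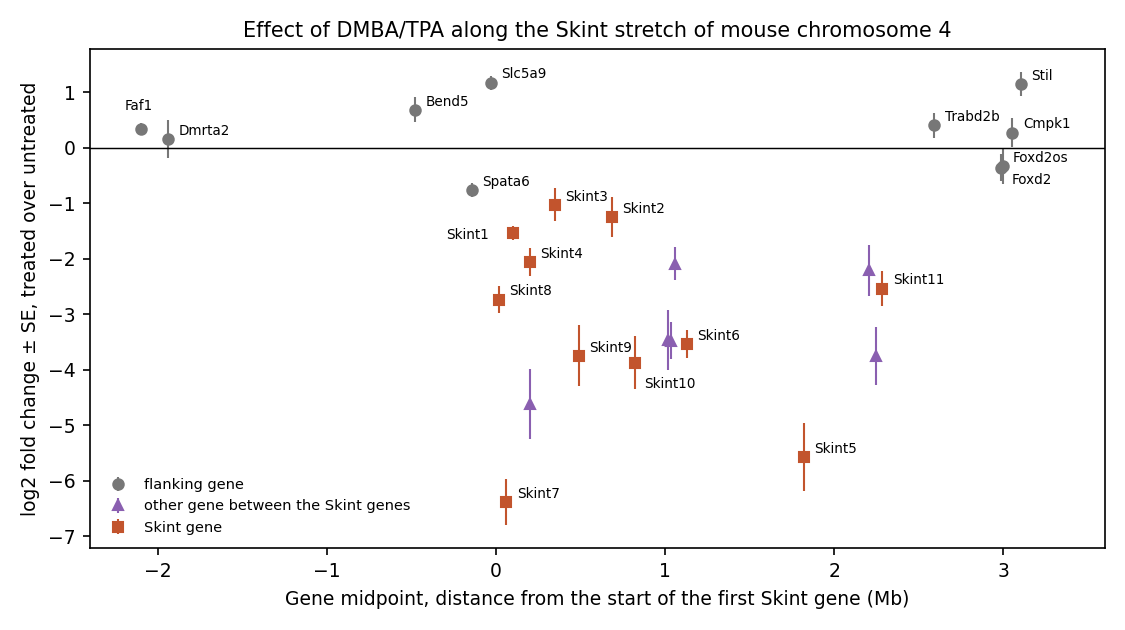
Log2 fold change of DMBA/TPA with its standard error (vertical axis) by the distance of each gene's midpoint from the start of the first Skint gene in Mb (horizontal axis), for Skint genes, the 6 other tested genes between them and the 5 nearest tested genes on each side. All Skint genes lie between -6.39 and -1.03, and the flanking genes between -0.76 and 1.17.

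The genes whose levels followed the mean of the 10 members most closely over the 8 mouse samples were Pcmtd1, Gk5, Acsl4, Paqr7 and Mrgprb11-ps, among 11421 compared. Pearson r for Pcmtd1 was 0.995, and 320 genes reached at least 0.95. Paqr7, a membrane progestin receptor gene, went from 369.5 ± 87.4 to 56.2 ± 10.6 CPM (SD, n = 4 each). After the group means were subtracted the closest were Zfp955b (r 0.968), Alox12e (0.966), Spp1 (0.963), Gm57126 (0.962) and Cd2ap (0.960). Alox12e, an epidermal lipoxygenase gene, measured 253.6 ± 70.2 CPM untreated, with 149 CPM in untreated sample 2, and 79.0 ± 16.9 CPM treated (SD, n = 4 each). These coefficients describe 8 samples in 2 groups and carry no test.

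Many genes listed for γδ T cells, the cells that Skint1 selects, were lower in treated mouse skin as well. Of 26 tested genes of a list for γδ T cells, 20 were called lower, 3 higher and 3 not called. Of all tested genes, 35.3% were called lower and 25.9% higher. The median log2 fold change of the list was -1.66. Trgv5 and Xcl1, among the 20, passed the low-count filter through the untreated group alone, which favours a lower call. The list was chosen with earlier results of these data known. Several of its genes are also active in other cells, T cells among them, and the receptor segments are the most particular to γδ T cells. Trgv5, a segment of the receptor of dendritic epidermal T cells, went from 1.05 ± 0.470 CPM to a treated group in which 3 of 4 samples held no count. Its summed counts were 102 and 2, a ratio of 0.0197 with a 95% exact interval of 0.00235 to 0.0730 for counting error only. Trdv4, the partner segment, measured 4.48, 1.27, 5.09 and 4.56 CPM untreated and 0.998, 0.879, 0.691 and 0.483 CPM treated, a log2 fold change of -2.35 (SE 0.441; adjusted p 0.00169, edgeR). As with most Skint genes, untreated sample 2 was low in Trdv4.

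Of the constant genes of the γδ receptor, Trdc and Trgc1 were lower as well. Trdc went from 5.52 ± 1.62 to 1.22 ± 0.212 CPM (SD, n = 4 each, edgeR adjusted p 0.000214). Trgc1 went from 4.37 ± 1.44 to 0.631 ± 0.370 CPM (SD, n = 4 each). Its log2 fold change of -2.79 became -2.4 without treated sample 4. With so low a treated level, Trgc1 leaned on the untreated group to pass the low-count filter, which favours a lower call. Cd3g, a chain of the signalling complex of all T cell receptors, had a log2 fold change of -2.13 (SE 0.248; adjusted p 0.000122, edgeR). Klrk1, the activating receptor for stress ligands, had one of -1.68 (SE 0.243; adjusted p 0.000396, edgeR). Cd7, a receptor of T and natural killer cells, had one of -2.41 (SE 0.334; adjusted p 0.000316, edgeR). Xcl1, a chemokine that these cells release, had one of -3.50 (SE 0.611), from 129 counts untreated and 11 treated over 4 samples each. It passed the low-count filter through the untreated group alone, so its lower call supports nothing about these cells.

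Within the list some genes went elsewhere. Sox13 rose from 15.4 ± 8.29 to 35.6 ± 3.10 CPM (SD, n = 4 each, edgeR adjusted p 0.00696). Itgae, the integrin that tethers T cells to E-cadherin, fell by 0.42 on the log2 scale (edgeR adjusted p 0.0176), a call lost at 0.0626 without untreated sample 2. The summed level of all 27 listed genes did not follow the count, at 347.2 to 392.0 CPM untreated and 395.2 to 437.9 CPM treated. The mean log2 CPM over the list was 1.82 in untreated sample 2, 2.35 to 2.42 in the other untreated samples and 0.89 to 1.10 in the treated ones.

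Genes of αβ T cells were mostly not called. Of 10 tested, 1 was called higher, 2 lower and 7 not called, where 25.9% of all tested genes were called higher and 35.3% lower. The median log2 fold change was 0.28, and the sums were 28.0 to 40.9 CPM untreated and 31.8 to 41.0 CPM treated. Trac, the constant gene of the receptor α chain, was at 1.18 ± 0.0905 and 1.43 ± 0.0295 CPM (SD, n = 4 each; log2 fold change 0.27, edgeR adjusted p 0.28). Trbc2, a constant gene of the β chain, was at 14.8 ± 5.27 and 18.5 ± 1.97 CPM (log2 fold change 0.32, edgeR adjusted p 0.309). Cd28, a costimulatory receptor, was among the 2 called lower (log2 fold change -1.72, edgeR adjusted p 0.00114). The difference between both lists was not tested.

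Without untreated sample 2 the counts were 19 lower and 3 higher of 26 for γδ T cell genes and 2 lower and 1 higher of 10 for αβ T cell genes, where 36.2% of all tested genes were called lower and 33.5% higher. Langerhans cells, the other resident immune cells of the epidermis, had 4 of 7 markers called lower and 2 higher with all samples kept. In that comparison 35.3% of all tested genes were called lower and 25.9% higher. Sums for Langerhans cells were 492.5 to 966.1 CPM untreated and 631.6 to 749.0 CPM treated. Their defining marker Cd207 fell from 15.4 ± 5.07 to 3.95 ± 0.504 CPM (SD, n = 4 each, edgeR adjusted p 0.000261).

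Of 15 tested signals from keratinocytes to γδ T cells, 7 were called lower, 4 higher and 4 not called, where 35.3% of all tested genes were called lower and 25.9% higher. Il15, a cytokine that keeps these cells alive, fell from 9.85 ± 2.07 to 2.10 ± 0.440 CPM (SD, n = 4 each, edgeR adjusted p 4.9e-05). Il7, a cytokine for T cell growth, fell by 1.51 on the log2 scale (SE 0.243; adjusted p 0.000727, edgeR), and Ccl27a, a chemokine that draws T cells to skin, fell by 1.31 (SE 0.226; adjusted p 0.00104, edgeR). Il34, on which Langerhans cells depend, fell by 2.09 (SE 0.206; adjusted p 5.04e-05, edgeR). H60c, a stress ligand of Klrk1 found in skin, was at 26.8 ± 9.84 and 40.7 ± 8.83 CPM and was not called (edgeR adjusted p 0.0936), but its call depended on the setting. It was called higher in 4 of 13 alternatives, with log2 fold changes of 0.46 to 0.75. These were the one without untreated sample 2 (edgeR adjusted p 0.0178), DESeq2's size factors in edgeR (adjusted p 0.0483), no low-count filter (edgeR adjusted p 0.0334) and the test of DESeq2 (adjusted p 0.0238).

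**Figure D4:**
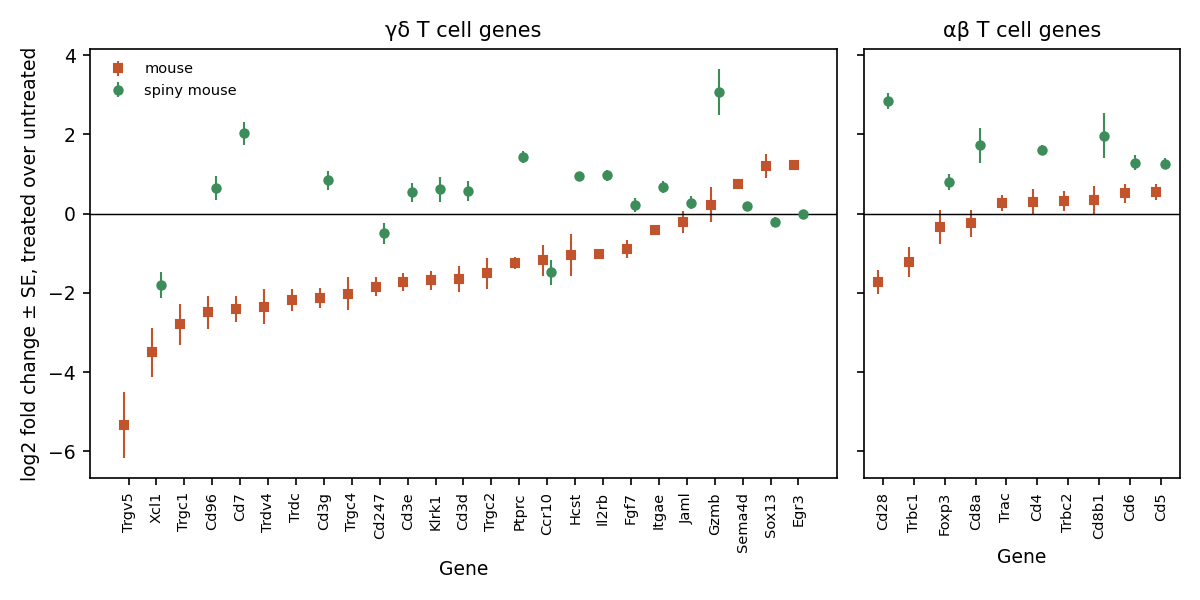
Log2 fold change of DMBA/TPA with its standard error for the tested genes of the γδ T cell list (left, 1 gene not shown) and the αβ T cell list (right), with mouse as orange squares and spiny mouse as green circles, ordered by the mouse value. In mouse 20 of 26 γδ T cell genes were called lower, where 35.3% of all tested genes were. In spiny mouse all 7 tested αβ T cell genes were called higher, where 28.2% of all tested genes were. None of these 7 encodes a T cell receptor chain.

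Other relatives of the Skint proteins moved in both directions. Of 14 butyrophilin relatives 7 were tested in mouse, with 3 called higher and 3 lower, Skint8 among the latter. Over all tested genes, 25.9% were called higher and 35.3% lower. Btnl9, a butyrophilin-like gene, fell from 3.68 ± 0.469 to 1.89 ± 0.422 CPM (SD, n = 4 each, edgeR adjusted p 0.00467). Markers of the thymic epithelium, the other site where Skint1 is made, were tested for 5 of 7 genes, with 2 called higher and 2 lower. The sum of the 7 rose, from 159.7 to 319.8 CPM untreated to 1376 to 1668 CPM treated. Psmb11 and Aire, which are also on this list, were near 0 in mouse skin and not tested. Their group means were 0.0219 and 0.0447 CPM untreated and 0.0277 and 0.202 CPM treated.

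In spiny mouse 6 gene names begin with Skint, all on scaffold_15 of the AcoCah2 assembly between 12942567 and 13465143, a stretch of 522.6 kb. They are the members Skint1, Skint7, Skint9, Skint10 and Skint11 and the further gene Skint8. No entry of the spiny mouse table is named Skint2, Skint3, Skint4, Skint5 or Skint6. The 6 names cover 3 separate places. Skint7 and Skint8 share exons on the same strand, with 99.02% of the exon bases of Skint8 and 47.7% of those of Skint7 in common with the other. Skint10, Skint11 and Skint9 share exons in the same way, over 42.2%, 85.5% and 81.1% of their exon bases. Fragments that fall on shared exons were not counted, so the levels of these 5 names are too low by an unknown amount. Skint1 alone, from 12981129 to 13003220, overlapped no other gene.

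Skint1, Skint7 and Skint10 had enough counts to be tested in spiny mouse, a comparison that did not enter the choice of the members. All 3 fell and in all 3 every treated sample lay below every untreated one, where 26.9% of all tested spiny mouse genes were called lower, 28.2% higher and 24.1% had all treated samples below all untreated ones. Skint1 measured 8.37, 11.5, 14.1 and 10.1 CPM in untreated samples 1 to 4 and 2.32, 2.22, 2.75 and 1.97 CPM in treated samples 1 to 4. Its log2 fold change was -2.25 (SE 0.184; adjusted p 2.8e-05, edgeR), a 4.75-fold fall.

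Skint7 measured 4.19, 6.39, 5.34 and 4.62 CPM untreated and 1.05, 1.22, 0.805 and 0.503 CPM treated in spiny mouse. Its log2 fold change was -2.51 (SE 0.261; adjusted p 8.25e-05, edgeR), a 5.69-fold fall. Skint10 measured 7.66, 6.66, 8.71 and 6.31 CPM untreated and 1.14, 1.39, 3.33 and 1.01 CPM treated. Its log2 fold change was -2.08 (SE 0.349; adjusted p 0.00099, edgeR), and without treated sample 3, which lay above the other 3, it was -2.62. The calls of all 3 held in each alternative run, with edgeR or DESeq2 adjusted p-values of at most 0.00386.

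Skint11, Skint9 and Skint8 had few or no counts in spiny mouse, where fragments on their shared exons were not counted. Skint11 had 19 counts in the untreated and 2 in the treated group, a ratio of 0.112 with a 95% exact interval of 0.0127 to 0.466. Skint9 had 7 counts untreated and 0 treated, and Skint8 1 and 0. For the treated group, 0 counts allow up to 3 counts, or 0.0303 CPM over the 4 samples. This bounds counted fragments only, since most exon bases of Skint9 and Skint8 are shared.

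**Figure D5:**
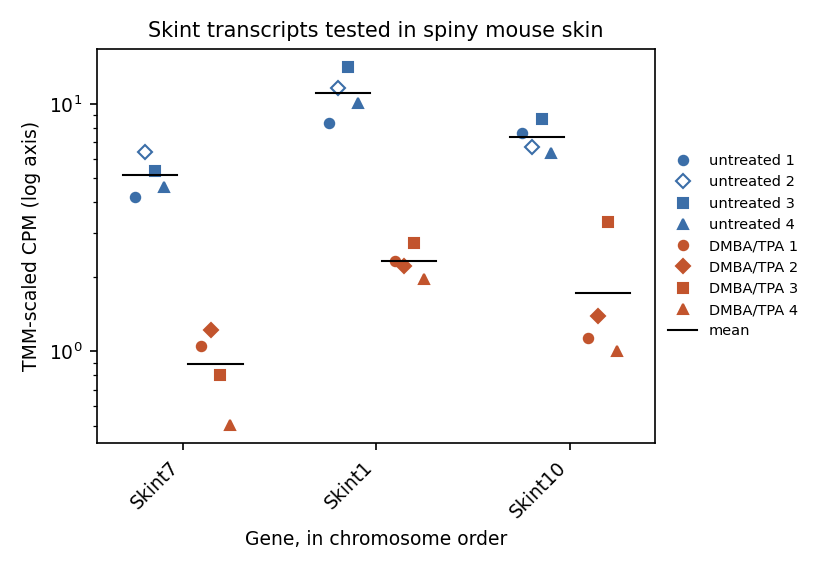
Level of the 3 Skint genes tested in spiny mouse (TMM-scaled CPM, log axis) in every sample, untreated in blue and DMBA/TPA-treated in orange, with black lines at group means of 4. Treated samples lie below untreated ones in each gene, and treated sample 3 of Skint10 is highest of its group at 3.33 CPM.

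The 3 genes shared by both comparisons did not move by the same amounts. The log2 fold change of Skint7 was -6.39 in mouse and -2.51 in spiny mouse, a difference of 3.9 (SE 0.490), and that of Skint10 was -3.88 and -2.08, a difference of 1.81 (SE 0.617). For Skint1 the order was the other way, at -1.54 in mouse and -2.25 in spiny mouse, a difference of -0.70 (SE 0.213). The mouse arm was known when the members were chosen, so these differences carry no test, and exon sharing in spiny mouse bears on Skint7 and Skint10. Levels per kilobase in untreated spiny mouse skin were 8.77 ± 1.91 for Skint1, 4.15 ± 0.611 for Skint10 and 1.86 ± 0.349 for Skint7 (SD, n = 4 each). They rest on another annotation and scaling than in mouse and are not compared with it.

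Markers of other cells also moved in spiny mouse skin. Its keratinocyte markers summed to 18800 to 25040 CPM untreated and 26720 to 34460 CPM treated. Per 1000 CPM of them the summed level of the 5 members was 0.917 to 1.31 CPM untreated and 0.132 to 0.227 CPM treated, so the groups did not overlap on this scale either. Anagen markers summed to 1491 to 16730 CPM untreated and 235.9 to 4383 CPM treated. Of 13 tested, 5 were called lower and none higher, where 26.9% of all tested genes were called lower and 28.2% higher. The effect was called smaller than in mouse for all 13, where 46.1% of all symbols tested differed in either direction. Low levels of these markers in untreated mouse skin may favour such a call. All 9 tested muscle markers were called lower, from 18620 to 23090 CPM down to 6103 to 12640 CPM in sum. The part of these changes in the Skint values was not tested.

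T cell genes of spiny mouse skin were compared in the same way. The receptor genes Trdc, Trdv4, Trgv5 and Trgc1 had no entry by name in the spiny mouse table. There, γδ T cells cannot be told from other T cells by their receptor. Of the 20 tested genes of the γδ T cell list, 8 were called higher, 3 lower and 9 not called. Of all 14833 tested genes, 28.2% were called higher and 26.9% lower. Xcl1, among the 3 called lower, passed the low-count filter through the untreated group alone. The median log2 fold change of the list was 0.56, beside -0.01 over all tested genes. All 7 tested αβ T cell genes were called higher, with sums of 19.2 to 29.1 CPM untreated and 56.5 to 85.7 CPM treated. The receptor genes Trac, Trbc1 and Trbc2 had no entry by name either, so these 7 do not tell αβ T cells from other T cells.

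Cd3g was at 6.02 ± 1.67 CPM untreated and 10.8 ± 3.15 CPM treated in spiny mouse (SD, n = 4 each; log2 fold change 0.84, edgeR adjusted p 0.0172). Its effect differed from that in mouse by 2.97 on the log2 scale (SE 0.366, edgeR interaction adjusted p 1.47e-05). Cd7 rose by 2.03 and Cd28 by 2.85 (edgeR adjusted p 0.000416 and 1.34e-05), and their differences from mouse were 4.45 and 4.58 (edgeR interaction adjusted p 3.27e-06 and 2.44e-07). Over the γδ T cell list 13 of 20 effects were called larger in spiny mouse and 3 smaller, where 46.1% of all 13656 symbols tested differed in either direction.

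Xcl1 had 61 counts over the 4 untreated and 16 over the 4 treated spiny mouse samples, a ratio of 0.28 (exact 95% interval 0.151 to 0.492, counting error only), with the treated libraries close to the floor of 3 counts. Its difference from mouse depended on 1 library. The log2 difference was 1.69 (edgeR interaction adjusted p 0.0816), and without untreated mouse sample 2 it was 1.87 and called (edgeR interaction adjusted p 0.016). Among the keratinocyte signals, 3 of 9 tested were called lower and 2 higher in spiny mouse, where 26.9% of all tested genes were called lower and 28.2% higher. Il15 fell by 0.47 and Il34 by 1.34 (edgeR adjusted p 0.0104 and 4.61e-05), each by less than in mouse, with differences of 1.76 and 0.75 (edgeR interaction adjusted p 4.14e-05 and 0.0203). Btnl9 fell by 1.88 (edgeR adjusted p 3.16e-05), further than in mouse by 0.91 (edgeR interaction adjusted p 0.00864).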

How the data were processed

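Stranded mRNA libraries of skin from 16 samples were made after column extraction, per the labels' protocols. The authors deposited raw counts of fragments per gene, made with featureCounts 2.0.3 per the file headers, on GRCm39 with Ensembl 108 for mouse and on AcoCah2 for spiny mouse. Pairs with both ends mapped were counted, and no strand or multi-mapping option appears in the command per the file headers. Trim Galore and HISAT2 are named in the submitters' processing notes, without versions. The untreated columns carry another code than the labels and were matched by species letter and replicate number.

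Mouse identifiers were given symbols from GENCODE M39, which named 56236 of 56980. Counts were filtered with filterByExpr, scaled with TMM and tested within species with the quasi-likelihood test of edgeR 4.0.16 (R 4.3.3), treated over untreated, with Benjamini-Hochberg adjustment over all genes tested and a threshold of 0.05. The species difference is the interaction term, given as spiny mouse minus mouse. Ratios of summed counts have exact intervals from the binomial split of the counts. Likeness and list scores used log2 CPM with a prior count of 2, and likeness was looked for among genes averaging 3 or more on the log2 CPM scale.

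The members and the 14 gene lists were chosen with earlier results of these data known. Named genes were all members, other Skint symbols, list genes, the 5 nearest tested genes on either side of the Skint stretch and the 5 genes most alike the members. Which list genes are named was decided after their values were seen, and 1 list gene is counted but not reported here.

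The deposited total counts per sample set the smallest detectable level. Across the 24 within-group pairs of samples, the chi-square of the counts was 11.35 to 165.8 times its degrees of freedom, far above sampling noise, and each sample was kept as a replicate. On simulated data the mouse test (20204 genes) recovered 96.9% of genes changed by 2 and 48.0% of those changed by 1 on the log2 scale, the spiny mouse test (14861 genes) 98.0% and 59.0%, and the interaction (13696 genes) 96.2% and 27.2%. The simulation changed few genes, as many up as down, and held no outlying sample. Its rates need not hold for the real counts, where most mouse genes were called and untreated sample 2 stood apart. Alternatives were DESeq2 1.42.0 as test and as scaling, upper-quartile scaling, testing without the low-count filter, a replicate block and leaving out each sample.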

Additional observations from a re-analysis of the deposited data

Results flagged for a closer look

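Of 104 groups of 4 samples looked at for the genes named, 11 (10.6%) held 1 sample far from the other 3. The rule flags about 1 in 20 groups of independent, normally spread values. The genes share libraries, and a group with counts in only 1 sample is always flagged, so the 2 rates cannot be compared. Among mouse Skint genes this sample was untreated sample 2 in each case. It measured 62.84 CPM for Skint1 against 74.5 to 75.6 CPM in the others, 63.28 CPM for Skint3 against 159.7 to 176.4 CPM, 34.65 CPM for Skint9 against 139.5 to 160.4 CPM, and 14.47 CPM for Skint11 against 33.9 to 36.1 CPM. The same sample held 1.272 CPM of Trdv4 against 4.48 to 5.09 CPM. The far value of Trgv5 was 0.105 CPM in treated mouse sample 1, where the other treated samples had no count.

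In spiny mouse, treated sample 3 stood apart with 3.33 CPM of Skint10 against 1.01 to 1.39 CPM, and with 0.1098 CPM of Xcl1 against 0.179 to 0.183 CPM. Untreated sample 3 held 0.2042 CPM of Skint9 against at most 0.034 CPM, and 12.59 CPM of Il15 against 10.2 to 10.5 CPM. Untreated sample 1 held the single count of Skint8, at 0.03402 CPM.

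For the named genes outside the members, which were picked after values were seen, 11 of the 14 effects tested in both species differed between them by the interaction test of edgeR, as did 46.1% of all 13656 symbols tested. The log2 fold change, spiny mouse minus mouse, differed by 4.58 for Cd28, 4.45 for Cd7, 2.97 for Cd3g, 2.29 for Klrk1 and 1.09 for Itgae. It differed by 1.76 for Il15, 1.24 for Il7, 0.75 for Il34 and 1.37 for Cd207. For Sox13 the difference was -1.43 and for Btnl9 -0.91.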

How the results depend on the processing

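The 10 mouse members stayed lower in treated skin in each of the 13 alternatives. Only Skint1 moved by more than the SD of its log2 CPM within groups, to -1.74 with upper-quartile factors. Leaving out 1 sample at a time gave log2 fold changes of -6.67 to -5.95 for Skint7, -6.28 to -5.20 for Skint5 and -1.18 to -0.83 for Skint3. In spiny mouse these ranges were -2.37 to -2.11 for Skint1, -2.69 to -2.31 for Skint7 and -2.62 to -1.88 for Skint10, all called. The counts of called genes, 12085 in mouse, 8180 in spiny mouse and 6290 for the species difference, stayed within 1.5 times under each alternative. The share of calls that were higher depended on the scaling. In mouse it was 42.4% with TMM and 30.5% with upper-quartile factors, which moved the median of all genes by -0.20 on the log2 scale. Without the low-count filter that median moved by -0.31. For the species difference the share was 46.4%, against 61.2% with upper-quartile factors and 36.3% with every low-count gene kept. The median of all genes is given beside that of the members for this reason. Among the other named genes, the call of Itgae in mouse was lost in 7 of its alternatives, that of Cd207 in spiny mouse in 7 and that of the species difference of Il34 in 3. Calls were gained for H60c in mouse in 4, for Klrk1 in spiny mouse in 1 (0.82, edgeR adjusted p 0.0272, without treated sample 1) and for the species difference of Xcl1 in 1.

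Replicate numbers recur in all groups, and the labels do not say that they pair samples. Deviations of same-numbered samples correlated by 0.009 on average in mouse and by -0.355 in spiny mouse, and no sample was most alike the one of its own number. With the replicate number as a block the calls were 11246 in mouse, 7418 in spiny mouse and 5723 for the species difference, and among the named genes Cd207 in spiny mouse alone lost its call (edgeR adjusted p 0.0909). Depth limits Skint7 in treated mouse skin, where the group held 32 counts. Skint9, Skint11 and Skint8 held 19 counts or fewer per group in spiny mouse skin. There, depth and the uncounted fragments on shared exons cannot be told apart.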
